A study of Homo sapiens with 6 samples.

Results

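The 10 genes of the aldehyde dehydrogenase family followed here, in DU145 cells depleted of E6AP, were ALDH2, ALDH3A1, ALDH3A2, ALDH3B1, ALDH4A1, ALDH6A1, ALDH7A1, ALDH9A1, ALDH16A1 and ALDH18A1. They were taken by symbol from the 33835 genes with values in the deposited count table, as a named list of family members without the retinaldehyde-oxidising ALDH1A genes and the folate-dependent ALDH1L genes. The list is not complete: ALDH1B1, ALDH3B2, ALDH5A1 and ALDH8A1 also lie outside those subfamilies and are not on it, so counts and sums over the 10 leave them out, and their values are given with the other aldehyde dehydrogenases. All 10 have a row and all 10 passed the filter on low counts that left 19433 genes for testing. The list was chosen by family name with the fold changes of shE6AP over wobble already known, so the members' differences are given as a description, without p-values.

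DU145 is an established human prostate cancer line. The shE6AP group (3 libraries) carried a short hairpin against E6AP, the HECT-type ubiquitin ligase encoded by UBE3A, and the wobble group (3 libraries) carried a control for that hairpin whose sequence the labels do not describe. Both groups were transduced DU145 cells that received doxycycline at 0.2 µg/ml for 2.5 days. No label says whether the libraries of a group come from separate cultures or whether the cells are pools or clones, so each p-value reflects library-to-library spread alone, which may be technical. The study asked which candidate targets of E6AP differ in transcript level.

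Gene reads numbered 21558506 to 28228823 per shE6AP library and 27336700 to 30488217 per wobble library. UBE3A, the targeted transcript, stood at 14.24, 14.47 and 14.97 CPM (each count relative to its library total, with the TMM correction for composition) in shE6AP and at 54.1, 55.4 and 57.9 CPM in wobble, a log2 fold change of -1.94 (SE 0.05; edgeR adjusted p = 2.52e-31). An exact permutation test over the libraries, two-sided, gave p = 0.1, which is the lowest value 3 against 3 can reach. The epithelial markers KRT8, KRT18, KRT19, KRT7, EPCAM and CDH1 were all present and summed to 2161 to 2214 CPM in shE6AP and 2792 to 2928 CPM in wobble. The lower sum was carried by KRT7 (1120 CPM in shE6AP and 1911 CPM in wobble), while KRT8, KRT18 and EPCAM had higher means in shE6AP. Markers of blood cells with a row (3 of 5) summed to 2.58 to 3.55 CPM in shE6AP and 1.33 to 1.80 CPM in wobble, and those of fibroblasts and endothelium (5 of 6) to 17.9 to 19.4 CPM in shE6AP and 13.5 to 16.7 CPM in wobble. PTPRC, the pan-leukocyte marker, averaged 0.359 CPM in shE6AP and 0.267 CPM in wobble. The part of these differences in the results was not tested.

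Most aldehyde dehydrogenases oxidise aldehydes to carboxylic acids with NAD or NADP as the electron acceptor. Some members clear reactive aldehydes that arise from ethanol, from fatty alcohols and sphingolipids or from lipid peroxidation, and others carry out a fixed step in the breakdown or synthesis of an amino acid or of carnitine. Family activity, mostly through ALDH1A members, is also widely used as a marker of progenitor-like cells in carcinomas. Most members followed here are detoxifying or amino acid enzymes, while ALDH9A1 serves carnitine synthesis and ALDH16A1 lacks the catalytic cysteine.

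In shE6AP cells 6 of the 10 transcripts were lower and 1 was higher. ALDH7A1 stood at 47.3% of its wobble level and ALDH18A1 at 64.1%, and ALDH9A1, ALDH3B1 and ALDH2 stood at 73.9%, 75.1% and 77.0%. ALDH4A1 was lower by a smaller margin (90.3%), ALDH3A2 was higher (114%), and ALDH6A1, ALDH16A1 and ALDH3A1 had libraries that overlapped between groups. The 6 lower and the 1 higher transcript passed the threshold of the fit across all genes (the quasi-likelihood test of edgeR, adjusted p under 0.05 after Benjamini and Hochberg), beside 59.0% of all tested genes in either direction, 30.4% lower and 28.6% higher. The same 7 had no overlap between groups in CPM, beside 62.6% of tested genes, 31.9% lower and 30.6% higher; since the list was drawn up with this contrast known, nothing is read from these counts. The members' median log2 fold change was -0.26, and that of all tested genes 0.01.

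**Figure D1:**
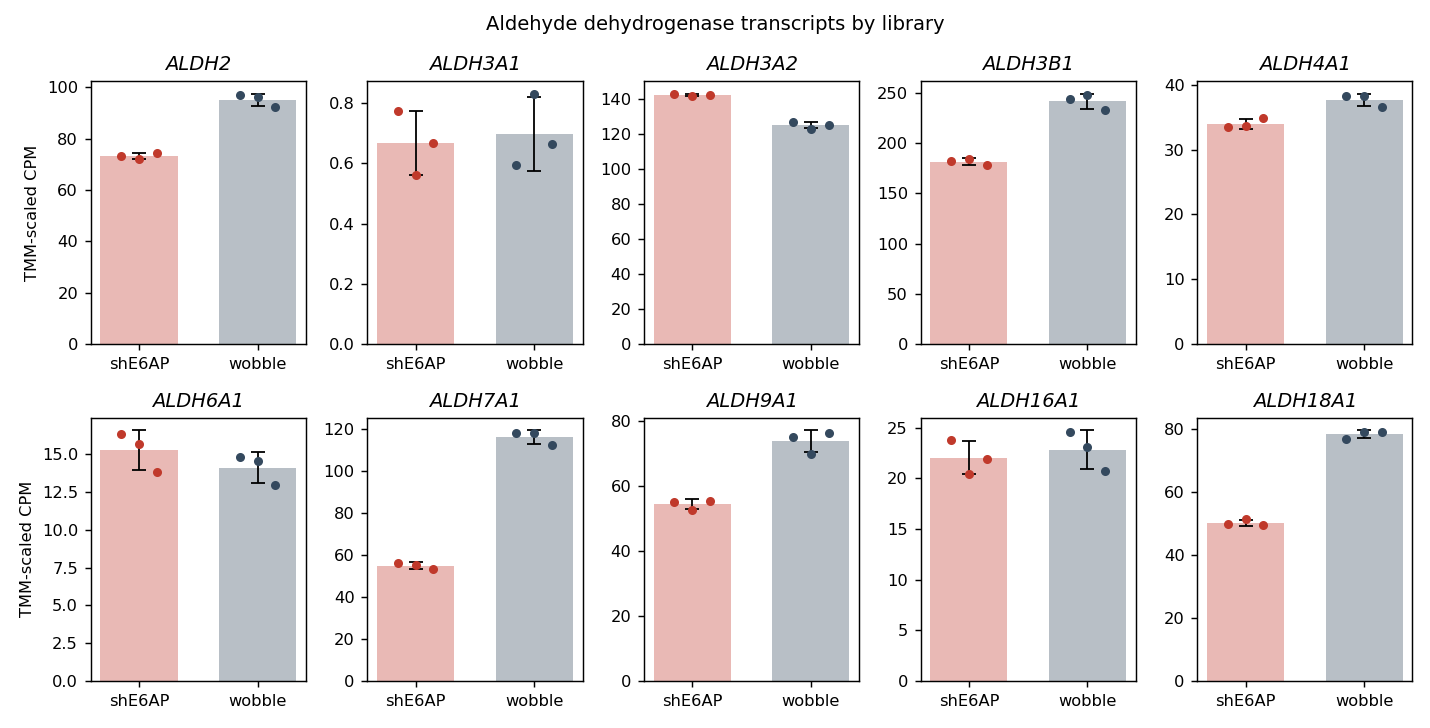
TMM-scaled CPM (vertical axis, from 0) of the 10 aldehyde dehydrogenase genes in shE6AP and wobble; each point is 1 of 3 libraries, and a bar with its whisker gives the group mean with SD. ALDH7A1 lies between 53.3 and 56.2 CPM in shE6AP and between 112 and 118 CPM in wobble, while ALDH3A2 is the member whose shE6AP libraries all lie above those of wobble.

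RefSeq start sites (GRCh38.p14) were at hand for 7 of the 10 members, with a second start for ALDH4A1, ALDH3B1 and ALDH3A2. The 250 bases before a start are printed for ALDH18A1 and ALDH3B1, which were lower in shE6AP, and for ALDH3A2, which was higher; these 3 windows hold no exon of the gene in GENCODE release 29. Capitals mark CpG dinucleotides and, in ALDH18A1, an E-box (CACGTG, palindromic).
ALDH18A1, chr10:95656712-95656961, minus strand: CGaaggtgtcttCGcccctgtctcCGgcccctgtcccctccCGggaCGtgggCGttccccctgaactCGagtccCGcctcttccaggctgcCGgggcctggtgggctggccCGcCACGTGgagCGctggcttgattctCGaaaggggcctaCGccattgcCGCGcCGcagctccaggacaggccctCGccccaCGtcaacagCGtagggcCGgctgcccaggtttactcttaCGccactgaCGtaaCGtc
ALDH3B1, chr11:68008297-68008546, plus strand: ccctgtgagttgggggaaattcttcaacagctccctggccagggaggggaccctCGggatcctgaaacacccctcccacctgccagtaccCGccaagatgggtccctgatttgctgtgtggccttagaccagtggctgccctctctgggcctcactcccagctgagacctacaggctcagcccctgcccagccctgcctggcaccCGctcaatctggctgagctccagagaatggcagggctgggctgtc
ALDH3A2, chr17:19647886-19648135, plus strand: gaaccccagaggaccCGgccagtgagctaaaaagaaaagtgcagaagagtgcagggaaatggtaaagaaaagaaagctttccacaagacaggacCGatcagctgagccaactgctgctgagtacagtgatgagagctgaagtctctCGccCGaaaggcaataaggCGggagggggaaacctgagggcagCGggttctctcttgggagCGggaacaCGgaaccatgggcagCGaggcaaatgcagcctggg

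The printed windows differed in base composition. The ALDH18A1 window held 24 CpG sites, an observed to expected CpG ratio of 0.825, whereas this ALDH3B1 window held 3 (ratio 0.12) and the ALDH3A2 window 9 (ratio 0.49). The second windows of these genes were not printed because they overlap exons. They held 11 CpG sites (ratio 0.398) in ALDH3B1 and 22 (ratio 0.667) in ALDH3A2. A short sequence just after the second start occurred in more GENCODE transcripts than that after the printed start (4 against 0 for ALDH3B1, 9 against 2 for ALDH3A2). Such transcripts need not start there. The median ratio over 35116 RefSeq windows of the same length was 0.558. CACGTG occurred in ALDH18A1 and in the second ALDH3A2 window, on members that differed in direction, and in 6.34% of all windows. On either strand, CCAAT occurred in ALDH6A1 (4 matches), in ALDH7A1 (1) and in the second ALDH3A2 window (1), against 32% of all windows, and the GC box GGGCGG in ALDH7A1 (3), ALDH9A1 (2), ALDH4A1 (1) and the second windows of ALDH3A2 (4) and ALDH3B1 (2), against 42.6%. The letters of the ATF4 element (TGATGNAA), the antioxidant response element (TGACNNNGC), the TATA box (TATAAA) and the sterol regulatory element occurred in none of the members' windows, and in 3.14%, 10.9%, 10.7% and 0.125% of all windows. A match is a string of letters, not a bound site.

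Among the aldehyde-clearing enzymes, ALDH2 is the mitochondrial enzyme that oxidises acetaldehyde from ethanol and also takes lipid-derived aldehydes. It had 73.4, 72.0 and 74.3 CPM in shE6AP libraries 1 to 3 and 97.0, 96.1 and 92.4 CPM in wobble libraries 1 to 3. All shE6AP libraries lay below all wobble libraries, and the log2 fold change was -0.38 (SE 0.04). In GENCODE, 680 of its 9604 exon bases are shared with another gene.

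ALDH3B1, an enzyme of medium- and long-chain and lipid peroxidation aldehydes, had the highest level of the 10 on a per-kilobase scale. Its libraries stood at 182, 185 and 178 CPM in shE6AP and at 244, 248 and 233 CPM in wobble. The groups did not overlap, and the difference of -0.41 on the log2 scale (SE 0.03) was of the size seen for ALDH2. ALDH3B2, its close paralogue, had 4 to 8 reads in shE6AP and 3 to 9 reads in wobble, so few reads of the pair were counted under ALDH3B2.

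ALDH3A2 encodes the fatty aldehyde dehydrogenase of the endoplasmic reticulum, whose loss causes Sjögren-Larsson syndrome. It had 143, 142 and 142 CPM in shE6AP and 127, 123 and 125 CPM in wobble. Each shE6AP library was above each wobble library, by 0.19 on the log2 scale (SE 0.03), a difference that did not pass the threshold with an assumed coefficient of variation of 0.1. Among shE6AP libraries the coefficient of variation was 0.451%, below the 1.69% that counting alone gives.

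ALDH3A1, the corneal and stomach enzyme of aromatic and lipid-derived aldehydes, lies near ALDH3A2 on chromosome 17 and was barely present. It had 22, 12 and 16 reads in shE6AP and 18, 24 and 18 reads in wobble, or 0.667 ± 0.105 and 0.696 ± 0.121 CPM (SD, n = 3 each). The log2 difference of -0.04 had a standard error of 0.27 and turned to 0.05 without shE6AP library 2 and to 0.10 without wobble library 2. At this depth no difference was detectable.

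A pair of members handles Δ1-pyrroline-5-carboxylate, the intermediate that links glutamate, proline and ornithine. ALDH18A1 makes it from glutamate, the first step of proline synthesis, and ALDH4A1 oxidises it back to glutamate in mitochondria, the last step of proline breakdown. ALDH18A1 had 49.8, 51.4 and 49.7 CPM in shE6AP and 77.1, 79.3 and 79.1 CPM in wobble. The groups lay far apart relative to their spread, and the log2 fold change was -0.64 (SE 0.04). ALDH4A1 had 33.5, 33.6 and 34.9 CPM in shE6AP and 38.2, 38.2 and 36.5 CPM in wobble. Here the highest shE6AP library and the lowest wobble library were close, the log2 fold change was -0.15 (SE 0.05), and the difference did not pass the threshold if a coefficient of variation of 0.1 was assumed between libraries. The ratio of ALDH18A1 to ALDH4A1 reads, which needs no scaling between libraries, was 1.43 to 1.53 in shE6AP and 2.02 to 2.17 in wobble. In GENCODE, 1517 of the 3563 exon bases of ALDH4A1 are shared with exons of another gene, AL080251.1, and ALDH18A1 shares none. Strand is not marked by the library kit used. The overlap would make ALDH4A1 reads less certain if the annotation used for counting, which was not given, holds that gene.

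ALDH7A1 encodes antiquitin, the α-aminoadipic semialdehyde dehydrogenase of lysine breakdown, whose deficiency causes pyridoxine-dependent epilepsy. Its libraries stood at 56.2, 55.4 and 53.3 CPM in shE6AP and at 118, 118 and 112 CPM in wobble. The groups were separated by far more than the range within either; the log2 fold change was -1.08 (SE 0.04), and 2.98% of tested genes had a lower one. Its pseudogene ALDH7A1P1, to which reads could be misplaced, averaged 0.605 CPM in shE6AP and 0.847 CPM in wobble. ALDH7A1 had the largest difference of the 10 members, though not of the family (ALDH5A1, which is not on the list, had -1.20), and its log2 fold change ran from -1.11 to -1.05 over the 15 alternatives.

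ALDH9A1 oxidises 4-trimethylaminobutyraldehyde, a step of carnitine synthesis. Levels were 55.2, 52.7 and 55.4 CPM in shE6AP and 75.1, 69.8 and 76.1 CPM in wobble. The groups were separate by more than the range within either, with a log2 fold change of -0.44 (SE 0.04).

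ALDH6A1 is the mitochondrial methylmalonate semialdehyde dehydrogenase of valine and pyrimidine breakdown. Its 16.3, 15.7 and 13.8 CPM in shE6AP overlapped the 14.8, 14.6 and 12.95 CPM in wobble. The log2 difference of 0.11 (SE 0.07) did not pass the threshold, but without shE6AP library 3, the lowest of its group, it was 0.18 and passed. BBOF1 shares 469 of the 5776 exon bases of this gene.

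ALDH16A1 is a family member whose human protein lacks the catalytic cysteine and is known to bind maspardin. The libraries held 23.8, 20.5 and 21.9 CPM in shE6AP and 24.6, 23.2 and 20.7 CPM in wobble. They were interleaved, with a log2 difference of -0.04 (SE 0.06) that changed sign without wobble library 1, to 0.01. Its coefficient of variation, 7.51% in shE6AP and 8.49% in wobble, was above the 4.28% and 3.90% that counting alone gives. Of its 3153 exon bases, 337 are shared with AC010619.1 and 29 with PIH1D1.

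**Figure D2:**
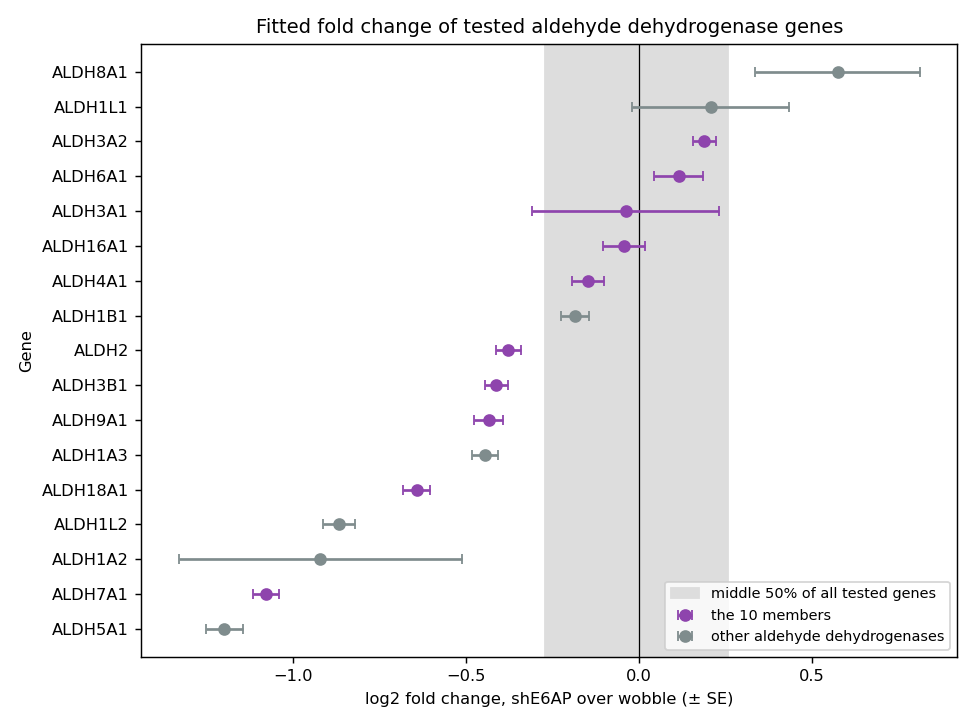
The horizontal axis gives the fitted log2 fold change (shE6AP over wobble, ± SE) for the 10 members and the 7 other aldehyde dehydrogenase genes with enough reads to test (vertical axis, by decreasing value). The grey band spans the middle 50% of all tested genes, -0.27 to 0.26; ALDH7A1, ALDH18A1, ALDH9A1, ALDH3B1 and ALDH2 among the members lie to the left of it, as do ALDH5A1, ALDH1A2, ALDH1L2 and ALDH1A3 among the others.

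Summed over the 10 members, reads came to 625 to 634 CPM in shE6AP and 789.5 to 815.7 CPM in wobble. The make-up of this sum differed. ALDH3A2 took 22.7 ± 0.109% of it in shE6AP and 15.5 ± 0.346% in wobble, and ALDH7A1 8.74 ± 0.181% in shE6AP and 14.4 ± 0.171% in wobble (SD, n = 3 each). ALDH2 kept nearly the same share, 11.6 ± 0.23% in shE6AP and 11.8 ± 0.0979% in wobble. Within a library, ALDH7A1 had 0.386 ± 0.00981 reads for each ALDH3A2 read in shE6AP and 0.929 ± 0.0314 in wobble. The pair had similar read numbers in wobble and differed in shE6AP. It joins the members with the lowest and the highest log2 fold change of the 10, so this difference follows from those values. In bulk RNA, fewer cells carrying a transcript and less of it in each cell cannot be told apart.

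Compared per kilobase of exon (GENCODE release 29), the levels in shE6AP ran from ALDH3B1 (61.9 CPM per kb) and ALDH3A2 (34.5) through ALDH9A1 (20.2), ALDH18A1 (14.98), ALDH7A1 (10.1), ALDH4A1 (9.54), ALDH2 (7.63), ALDH16A1 (6.997) and ALDH6A1 (2.65) to ALDH3A1 (0.296). Wobble had the same order, from ALDH3B1 at 82.4 to ALDH3A1 at 0.309 CPM per kb. ALDH2 and ALDH16A1 in shE6AP were the only neighbours in either order whose libraries overlapped. The place of ALDH2 rests on the length used: GENCODE gives it 9604 exon bases but 1551 coding bases, and per kilobase of coding sequence it was next in order after ALDH3A2 in shE6AP (47.2 CPM per kb, with ALDH3A2 at 97.95), and came after ALDH3A2 and ALDH7A1 in wobble (61.3). On that scale ALDH7A1 stood below ALDH2 and ALDH9A1 in shE6AP (34.0 CPM per kb), where its libraries overlapped those of ALDH9A1 (35.02), and next in order after ALDH3A2 in wobble (71.9, with ALDH3A2 at 85.98). ALDH6A1 and ALDH16A1 overlapped in both groups on the coding scale. ALDH3B1 and ALDH3A2 led and ALDH3A1 was last on both scales in both groups.

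**Figure D3:**
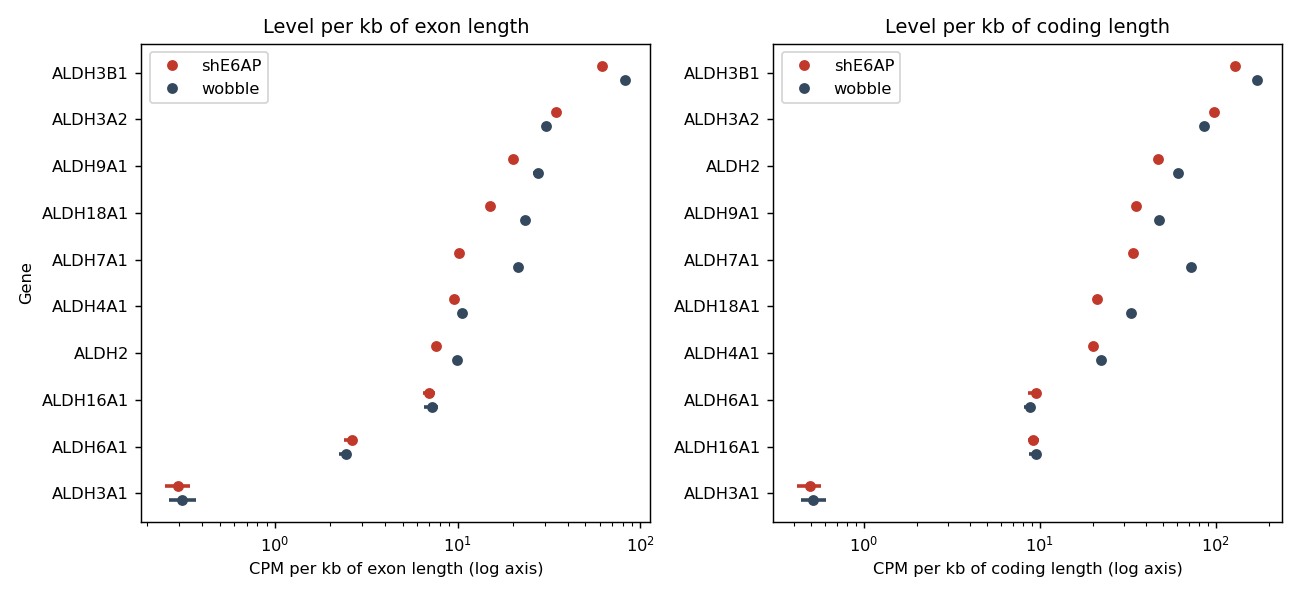
Levels of the 10 members per kb of exon length (left) and of coding length (right) on log axes, with genes down the page by their shE6AP mean. Dots are means and lines the range of 3 libraries; ALDH3B1 and ALDH3A2 lead in both panels and ALDH2 moves up when coding length is used.

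Of the 9 aldehyde dehydrogenase genes outside the 10, 7 were tested, with a median log2 fold change of -0.45. Of these, 4 were lower in shE6AP, 1 was higher and 2 did not pass, beside 30.4% lower and 28.6% higher among all tested genes. This list too was chosen with earlier results of these data known, so its p-values are no added support. ALDH5A1, the mitochondrial succinate semialdehyde dehydrogenase that ends GABA breakdown, had 16.4, 15.6 and 16.5 CPM in shE6AP and 37.2, 38.2 and 36.0 CPM in wobble (log2 fold change -1.20, SE 0.05, adjusted p = 3.65e-23 in edgeR). ALDH1L2, the mitochondrial 10-formyltetrahydrofolate dehydrogenase, averaged 34.2 ± 1.53 CPM in shE6AP and 62.3 ± 3.57 CPM in wobble (SD, n = 3 each; log2 fold change -0.87). ALDH1A3, a retinaldehyde dehydrogenase, had a log2 fold change of -0.45, and ALDH1B1, a mitochondrial relative of ALDH2, one of -0.19 (edgeR adjusted p = 4.76e-14 and 0.000129); the ALDH1B1 call was lost with an assumed variation of 0.1 (adjusted p = 0.231). ALDH8A1, with 15 to 34 reads in a library, was higher by 0.57 (SE 0.24), a call lost under 7 of its 14 alternatives, among them leaving out shE6AP library 1 or 2 or wobble library 2 or 3 (edgeR adjusted p of 0.0542 to 0.176). ALDH1A2 and ALDH1L1 did not pass (log2 differences of -0.92, SE 0.41, edgeR adjusted p = 0.0501, and 0.21, SE 0.23). ALDH1A2, with 3 to 16 reads in a library, did pass under 4 of its 14 alternatives (limma-voom, the replicate number as a block with adjusted p = 0.0407, without shE6AP library 3 and without wobble library 1), and its log2 difference ran from -1.43 to -0.51. ALDH1A1 and ALDH3B2 had too few reads to test.

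The genes around these enzymes were listed by pathway, and their p-values come from the fit across all 19433 genes. Among all tested genes 30.4% were lower and 28.6% higher, and nothing is read from the counts of each list. Unless said otherwise, the genes named were picked by fold change among called genes. Their low p-values follow from that choice and are no added support. Around ALDH18A1 and ALDH4A1, 12 genes of proline, ornithine and glutamate interconversion were tested, of which 6 fell and 3 rose, with a median log2 fold change of -0.09. OAT, ornithine aminotransferase, which feeds the same intermediate from ornithine, fell to 106, 103 and 100 CPM in shE6AP, against 193, 189 and 198 CPM in wobble (log2 fold change -0.91, SE 0.03). GLUL, glutamine synthetase, fell by 0.55 on the log2 scale. PRODH, proline dehydrogenase, rose by 0.35 and ARG2, the mitochondrial arginase, by 0.59. Thus the transcripts of enzymes that make pyrroline-5-carboxylate from glutamate and from ornithine were lower, and that of the enzyme that makes it from proline was higher, at 13.1 ± 1.03 CPM in shE6AP and 10.3 ± 0.514 CPM in wobble (SD, n = 3 each). For the 4 genes the adjusted p ran from 2.03e-25 for OAT to 7.81e-05 for PRODH (edgeR).

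Around ALDH6A1, 25 genes of branched-chain amino acid breakdown were tested, of which 13 fell and 7 rose (4 without wobble library 2), with a median of -0.19. HIBADH, the valine enzyme that makes the substrate of ALDH6A1, fell to 127, 132 and 130 CPM in shE6AP, against 239, 230 and 237 CPM in wobble (log2 fold change -0.86, SE 0.03, adjusted p = 2.85e-25 in edgeR). The wobble level of HIBADH was not approached by any shE6AP library, whereas ALDH6A1, the next enzyme, overlapped between groups. ACAD8, the isobutyryl-CoA dehydrogenase of valine breakdown, rose by 0.42 and IVD, the isovaleryl-CoA dehydrogenase of leucine breakdown, by 0.23, a call lost with an assumed variation of 0.1.

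Around ALDH7A1 and ALDH9A1, 13 genes of lysine breakdown and of betaine and carnitine synthesis were tested, of which 5 fell (3 without wobble library 3) and 2 rose, with a median of -0.09. AASS, which carries out the steps of lysine breakdown just before ALDH7A1, had 18.5 ± 0.692 CPM in shE6AP and 18.6 ± 2.09 CPM in wobble (SD, n = 3 each) and did not pass. SLC22A5, the carnitine transporter OCTN2, rose to 43.8, 41.7 and 42.9 CPM in shE6AP, against 23.5, 22.8 and 23.8 CPM in wobble (log2 fold change 0.88, SE 0.05, adjusted p = 4.26e-20 in edgeR). CHDH, choline dehydrogenase, which makes betaine aldehyde, fell by 0.51 and DLST, a subunit of 2-oxoglutarate dehydrogenase, by 0.12, a call lost with an assumed variation of 0.1. TMLHE, the first enzyme of carnitine synthesis, did not pass (8.59 ± 0.714 CPM in shE6AP and 9.70 ± 0.445 CPM in wobble, SD, n = 3 each). Its shE6AP libraries nevertheless all lay below those of wobble (adjusted p = 0.0825 in edgeR). AASS and TMLHE were picked out after their values were seen.

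Around ALDH3A2 and ALDH3B1, 12 genes that make or handle long-chain aldehydes and their precursors were tested, of which 6 fell and 5 rose, with a median of -0.20. SPHK1, a sphingosine kinase, fell to 8.57 ± 0.811 CPM in shE6AP, against 15.3 ± 0.784 CPM in wobble (SD, n = 3 each), and PHYH, the phytanoyl-CoA hydroxylase of peroxisomal α-oxidation, fell by 0.67 on the log2 scale. TMEM189, now called PEDS1, which introduces the vinyl ether bond of plasmalogens, rose by 0.65 on the log2 scale; it forms read-through transcripts with UBE2V1, so its count is uncertain. SGPP2, a sphingosine-1-phosphate phosphatase, rose by 0.39. SGPL1, the lyase that releases hexadecenal, a substrate of ALDH3A2, had 181 ± 0.666 CPM in shE6AP and 155 ± 2.75 CPM in wobble (SD, n = 3 each; log2 fold change 0.23) and was picked out after its values were seen.

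Alcohol dehydrogenases and aldo-keto and carbonyl reductases interconvert aldehydes or ketones and alcohols. Their list also holds enzymes of other kinds, among them GLO1, HAGH, ESD, PTGR1 and PTGR2. Of 21 genes tested, 8 fell (5 without wobble library 1) and 6 rose, with a median of -0.04. Among all tested genes 30.4% were lower and 28.6% higher. AKR1B1, aldose reductase, fell to 196, 180 and 195 CPM in shE6AP, against 328, 315 and 302 CPM in wobble (log2 fold change -0.73, SE 0.04, adjusted p = 1.18e-21 in edgeR). PTGR1, a reductase of prostaglandin and of unsaturated lipid aldehydes, fell by 0.25 on the log2 scale, a call lost with an assumed variation of 0.1. CBR1, a carbonyl reductase, rose by 0.36 and AKR1C3 by 0.53. AKR1C genes are alike in sequence, so some reads could be misplaced among them.

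Amine oxidases release aldehydes from amines or from lysine side chains. Their list also holds AOX1, an aldehyde oxidase, and SAT1, a polyamine acetyltransferase, both higher in shE6AP. In this list 5 of 12 tested genes fell and 5 rose, with a median of 0.03 and a mean of -0.01, which differ in sign. LOXL2, a lysyl oxidase of the extracellular matrix, rose to 406 ± 16.6 CPM in shE6AP, against 332 ± 4.37 CPM in wobble (SD, n = 3 each; log2 fold change 0.29), and AOC2, a copper amine oxidase, rose by 0.64. LOXL4 and LOXL3 fell by 0.57 and 0.44 on the log2 scale.

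**Figure D4:**
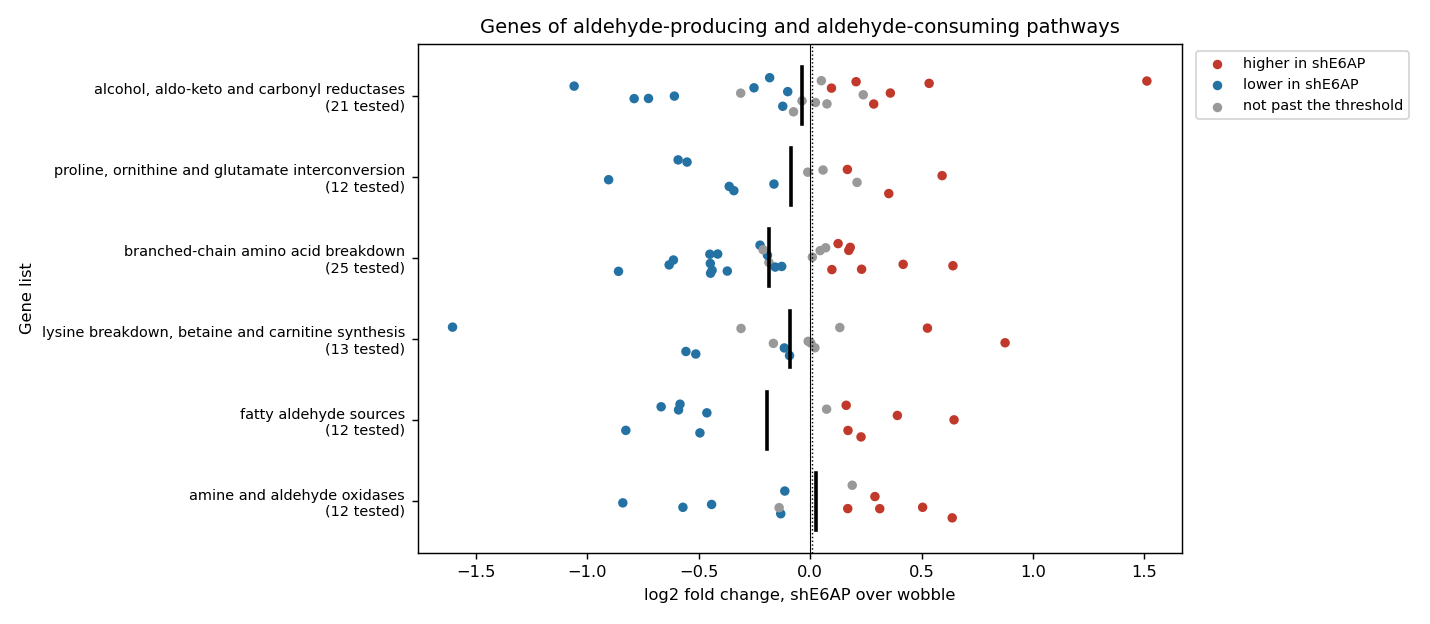
On the horizontal axis, log2 fold change (shE6AP over wobble) for tested genes of 6 pathway lists (vertical axis). Points are single genes, with those that rose in red, those that fell in blue and the rest in grey; black bars are list medians, from -0.20 for fatty aldehyde sources to 0.03 for amine and aldehyde oxidases, and the dotted line is the median of all tested genes (0.01).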

How the data were processed

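RNA of 6 DU145 samples was made into sequencing libraries with a TruSeq RNA kit, per the labels' protocols. As for alignment, per the submitters' processing notes, TopHat2 2.0.13 with Bowtie2 placed reads on hg19 and HTSeq gave the counts. The gene annotation and the strand setting were not given in the sources used here. The deposited table holds raw whole-number counts per gene. Kept out were 2 HTSeq summary rows (reads outside genes, 14.6% to 16.0%, and ambiguous reads, 2.05% to 2.21%), 1 row without a name (at most 4.59e-05%) and 1 without values.

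On these deposited counts, R 4.3.3 and edgeR 4.0.16 with filterByExpr, TMM and the quasi-likelihood test compared shE6AP with wobble, group as the only term, with Benjamini-Hochberg adjustment over 19433 genes. The SE is the log2 fold change over the square root of F. Libraries of a group differed beyond counting noise (chi-square per gene 1.76 to 3.54). The fit was checked on simulated counts, where smaller changes were recovered in part and slightly more calls than the nominal rate fell on unchanged genes. Far fewer genes were changed there than were called in the data, so scaling and error rate were not checked at that share of changes.

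Members and lists were chosen with earlier results of these data known. Named were all members, UBE3A, the other aldehyde dehydrogenases and, per pathway list, up to 2 genes each way by largest fold change among called genes without overlap between groups and averaging 5 CPM or more. Some named genes and markers are not reported here. Lists have no set test.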

Additional observations from a re-analysis of the deposited data

How the results depend on the processing

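The 15 alternatives were DESeq2 1.42.0, limma-voom (limma 3.58.1), scaling by RLE, upper quartile or library totals, no low-count filter, a minimum of 1 CPM in 3 libraries, a replicate block, an assumed variation of 0.1 and leaving out each library. UBE3A and the 6 members lower in shE6AP kept their direction in all of them, and 5 of these 6, not ALDH4A1, also kept their call. The share of all called genes that did so was not computed, so nothing is read from this count. With an assumed variation of 0.1, 3110 genes were higher and 3633 lower, against 5564 and 5903 in the main fit, and 0 members were higher. ALDH3A2 was lost, as were the calls of ALDH1B1, PTGR1, IVD and DLST. At this setting 0 other aldehyde dehydrogenases, 2 branched-chain genes and 2 fatty aldehyde genes were higher, and 2 lysine, betaine and carnitine genes were lower. In the reductase list 3 genes were higher and 4 lower, and in the list of amine and aldehyde oxidases 3 were higher and 3 lower. The number of other aldehyde dehydrogenases higher was also 0 with DESeq2, with no filter and with 1 CPM in 3 libraries. Without a filter 4 branched-chain genes were higher, and with upper-quartile scaling 3 lysine, betaine and carnitine genes were lower. The causes were not tested. Leaving out a library gave 1 to 2 members higher and 0 to 1 other aldehyde dehydrogenases higher. It gave 5 to 9 genes of the reductase list lower, 4 to 7 branched-chain genes higher and 3 to 4 lysine, betaine and carnitine genes lower. Over the alternatives ALDH3A1 ran from -0.17 to 0.10 and ALDH16A1 from -0.11 to 0.0082, both crossing 0.

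Deviations of same-numbered libraries correlated at 0.0438, 0.0166 and 0.0372, each the highest for its libraries, and the other pairs at -0.0325 to -0.00567. These low values do not settle whether the libraries are paired, and the main fit did not pair them. With the replicate number as a block 5849 genes were higher and 6130 lower, with 1 member higher and 6 lower; among named genes it added ALDH1A2. The 12 to 24 reads on ALDH3A1 are what depth limits.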
